A study of Mus musculus with 12 samples.

Results

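The 9 genes described here belong to the stage at which a marrow precursor commits to becoming a neutrophil. They are Mpo, Elane, Prtn3, Ctsg, Ms4a3, Fcnb, Prss57, Cebpe and Gfi1, chosen by name. All 9 are among the 53801 genes of the deposited tables, and all 9 had enough reads to be among the 15119 genes tested. RNA from whole bone marrow of C57BL/6N mice was sequenced in 12 libraries, 3 in each of 4 groups. Sham mice had the control operation, and MI mice had a myocardial infarction made by tying off the left anterior descending (LAD) coronary artery. Sham-E and MI-E mice had the same operations and were given EMPA, the abbreviation used in the labels for the agent. The labels give no allele, age, sex, dose or time after surgery, and they do not state that the libraries are from separate mice, so the p-values measure the spread between these samples, which may be technical. Libraries are named by group and column number (Sham 1, 3 and 4, Sham-E 1, 2 and 3, MI 1, 2 and 3, MI-E 2, 3 and 4).

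Primary granules, also called azurophil granules, are packed in the promyelocyte, an early dividing precursor of the neutrophil. Their cargo is myeloperoxidase and a family of serine proteases, which the mature cell uses against engulfed microbes. The genes for this cargo are switched off as the cell goes on to make secondary and then tertiary granules, so in whole marrow their RNA comes mainly from a small fraction of immature cells. Gfi1 and Cebpe encode transcription factors of this stage: Gfi1 is a repressor that holds back the monocyte programme, and C/EBP-epsilon is needed for the step to secondary granules.

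The 12 libraries held 21175087 to 24606783 counts each, and the 9 genes took 0.285% to 0.986% of them. Levels within a gene are given as CPM (counts scaled to a common library size, here corrected by TMM), and levels between genes as TPM, a transcript share that corrects for transcript length. Differences are log2 fold changes ± SE from the quasi-likelihood F-test of edgeR on all 12 libraries, with p-values adjusted over all genes tested and a threshold of 0.05. One library was the highest in every gene of the set, by 1.07-fold over the next library for Cebpe and 1.2-fold for Fcnb. For Elane and Ms4a3 the margin was 2.15-fold. Sham-E 1 had the highest CPM of the 12 libraries in 9 of 9 genes, against 13.5% of all genes tested, and its 9 genes summed to 11510 TPM against 3348 to 5311 in the other 11 libraries. Results that rest on it are therefore given with and without it. The MI libraries also had shorter recovered inserts (263.4 to 265.2 bp) than the other 9 (271.2 to 286.9 bp) and a larger share of mitochondrial counts (2.23% to 3.58% against 1.33% to 1.87%), so both cannot be told apart from infarction without EMPA.

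With all 12 libraries, none of the 9 genes passed the test in any comparison. Prtn3, Ctsg and Ms4a3 had higher group means in MI and in MI-E than in Sham, while Mpo and Elane had lower ones. Without Sham-E 1, Ctsg and Ms4a3 were higher in MI-E than in Sham-E and passed the test there. That library was the highest in these same genes, so leaving it out favours this direction, and the passes are a description. Fcnb had its lowest group mean in MI-E. In bulk RNA, fewer cells of a type and less RNA per cell cannot be told apart in any of these values.

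**Figure D1:**
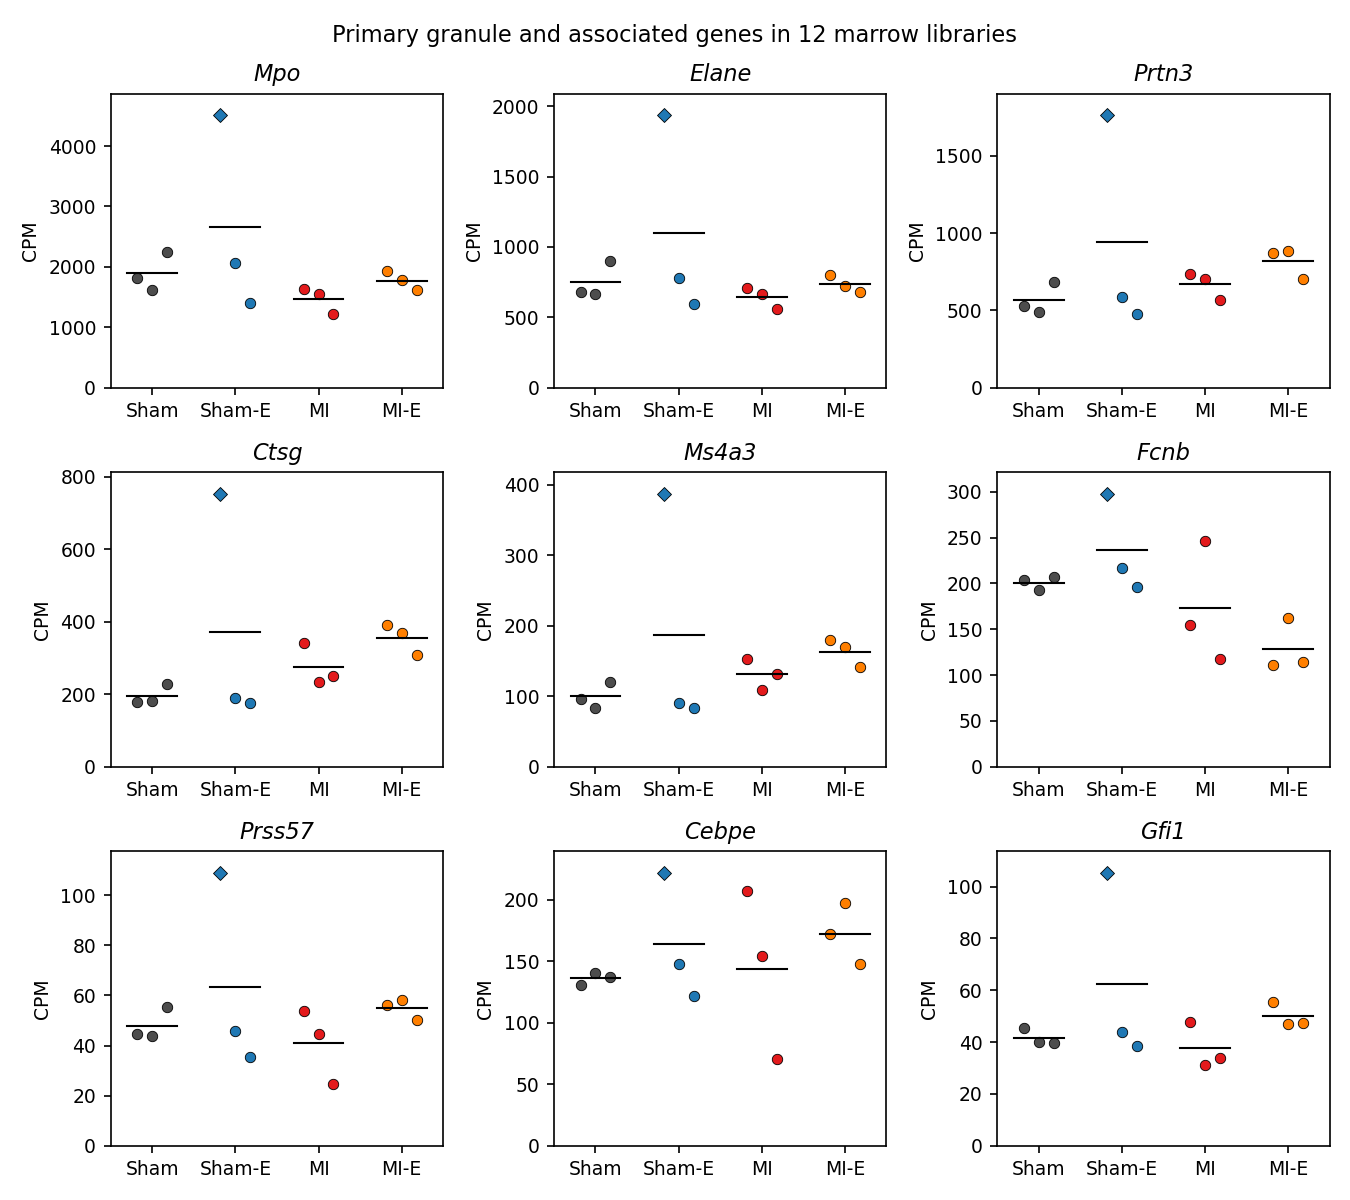
CPM of each of the 9 genes in the 12 libraries (vertical axes from 0, 1 panel per gene, groups on the horizontal axis). Points are libraries, the blue diamond is Sham-E 1 and the black line is the group mean. Sham-E 1 lies above the other 11 libraries in every panel, from 105 CPM for Gfi1 to 4509 for Mpo.

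Mpo encodes myeloperoxidase, the haem enzyme that turns hydrogen peroxide and chloride into hypochlorous acid. It lies on chromosome 11 (mm10, chr11:87793581-87804413, plus strand, 14 exons in the longest transcript) and had the highest counts of the set. Its CPM was 1811, 1625 and 2249 in Sham, 4509, 2056 and 1405 in Sham-E, 1638, 1553 and 1217 in MI, and 1934, 1778 and 1609 in MI-E. Apart from Sham-E 1 these values overlapped between all groups. MI was 0.37 ± 0.33 lower than Sham on the log2 scale (log2 fold change -0.37, edgeR adjusted p = 0.57) and MI-E was 0.27 ± 0.33 above MI (adjusted p = 0.71). Of its 3424 exonic bases, 512 are shared with Gm11505 on the opposite strand, and whether counting used strand is not given in the sources used here.

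Elane encodes neutrophil elastase and Prtn3 proteinase 3, serine proteases whose genes are neighbours on chromosome 10. Prtn3 (chr10:79874476-79883174) lies just ahead of Elane (chr10:79886247-79888215, 5 exons), both on the plus strand. Ctsg (chr14:56099881-56102574, minus strand, 5 exons) encodes cathepsin G, the third protease of this family in the granule. Ms4a3 (chr19:11629496-11640851, minus strand) encodes a membrane protein of granulocyte and monocyte progenitors. Stretches next to the RefSeq starts of these genes are shown because the levels of Prtn3, Ctsg and Ms4a3 ran together across libraries and ran less closely with Elane. They come from RefSeq (GRCm38.p6) and cover the part of the window from 250 bases before to 50 after the annotated start that lies outside GENCODE exons: chr10:79886062-79886246 for Elane, chr10:79879417-79879613 for Prtn3 (within the longer GENCODE gene, whose start lies further upstream), chr14:56102575-56102824 (minus strand) for Ctsg and chr19:11640852-11641101 (minus strand) for Ms4a3. Capitals mark GGAAGT, a core bound by PU.1 and other ETS factors, and AACNG, a core bound by MYB, on either strand (ACTTCC and CNGTT).
Elane: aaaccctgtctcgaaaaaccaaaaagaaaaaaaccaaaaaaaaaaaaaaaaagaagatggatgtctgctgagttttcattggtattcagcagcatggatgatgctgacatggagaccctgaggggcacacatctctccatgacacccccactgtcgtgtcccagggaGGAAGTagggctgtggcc
Prtn3: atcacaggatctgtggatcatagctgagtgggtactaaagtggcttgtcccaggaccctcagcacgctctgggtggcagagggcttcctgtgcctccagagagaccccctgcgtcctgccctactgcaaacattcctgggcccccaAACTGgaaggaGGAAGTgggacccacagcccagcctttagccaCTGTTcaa
Ctsg: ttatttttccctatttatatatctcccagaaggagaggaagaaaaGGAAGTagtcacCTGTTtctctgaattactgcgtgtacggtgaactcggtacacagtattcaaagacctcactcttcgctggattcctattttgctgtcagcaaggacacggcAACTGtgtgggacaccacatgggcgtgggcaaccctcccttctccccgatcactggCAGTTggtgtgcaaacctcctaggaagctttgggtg
Ms4a3: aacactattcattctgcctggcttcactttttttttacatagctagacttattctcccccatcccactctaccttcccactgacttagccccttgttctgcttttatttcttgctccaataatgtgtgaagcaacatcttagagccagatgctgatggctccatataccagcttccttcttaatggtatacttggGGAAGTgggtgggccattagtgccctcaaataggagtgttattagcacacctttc
Each of the 4 stretches holds 1 GGAAGT. Over whole windows of 300 bases, GGAAGT was found for 6 of the 7 genes of the set that had a RefSeq window, against 23.8% of 32851 windows of the same length. AACNG was found for 6 of 7 against 80.3%, and both together for 5 of 7 against 19.6%. TTNNGNAA, a core of C/EBP factors, was found for 3 of 7 (40.7% of all windows), and TGTGGT, a RUNX core, for 1 of 7 (16.8%). The MYB core is not marked in the printed stretches of Elane and Ms4a3. The whole Elane window holds 2 such cores, at 50 and 20 bases before the RefSeq start, in the part not printed. The whole windows of Prtn3 and Ctsg hold 3 each, and that of Ms4a3 holds 0. This core therefore did not part Elane from Prtn3, Ctsg and Ms4a3. The motifs were chosen after these sequences had been read, and a match describes letters and not a bound site.

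Elane had 679, 665 and 900.3 CPM in Sham, 1935, 776 and 592 in Sham-E, 706, 667 and 561 in MI, and 799, 722 and 682 in MI-E. As for Mpo, the groups overlapped and only Sham-E 1 stood out. The log2 fold change was -0.21 ± 0.34 in MI against Sham (edgeR adjusted p = 0.76) and 0.19 ± 0.34 in MI-E against MI (adjusted p = 0.81).

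Prtn3 had the opposite sign in MI against Sham. Its CPM was 526, 489.5 and 686 in Sham, 1762, 584 and 474 in Sham-E, 735, 704 and 569.6 in MI, and 874, 886 and 705 in MI-E. All 3 MI-E libraries were above all 3 Sham libraries and above Sham-E 2 and 3, while MI overlapped with Sham. The share of all genes tested that part MI-E from Sham is not given here. MI stood 0.24 ± 0.39 above Sham on the log2 scale (edgeR adjusted p = 0.77) and MI-E 0.30 ± 0.39 above MI (adjusted p = 0.74). Prtn3 shares 159 of 1732 exonic bases with Plppr3, a gene on the opposite strand that had 36.4 to 111.2 CPM and was also highest in Sham-E 1.

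Ctsg had the largest log2 fold change of the set in MI against Sham. It stood at 178, 181 and 229 CPM in Sham, 751, 189.5 and 176 in Sham-E, 339.8, 233 and 250 in MI, and 390.3, 368 and 307 in MI-E. Every MI library was above every Sham library, MI 2 only just (233 against 229 in Sham 4). It was the only one of the 9 genes without overlap in that comparison, where 13.4% of all genes tested lay wholly higher and 13.8% wholly lower. Its difference of 0.49 ± 0.46 on the log2 scale did not pass the test (edgeR adjusted p = 0.59). MI-E was 0.37 ± 0.46 above MI (adjusted p = 0.72).

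Ms4a3 ran closely with Ctsg. Its CPM was 96.4, 83.0 and 119.9 in Sham, 387, 90.6 and 82.9 in Sham-E, 152, 109.5 and 131 in MI, and 179.5, 169 and 141 in MI-E. The 3 MI-E libraries were above all Sham libraries and above Sham-E 2 and 3. Prtn3, Ctsg, Cebpe and Gfi1 also lay wholly higher in MI-E than in Sham, and Fcnb wholly lower. The share of all genes tested that do so is not given here, so this is not shown to be particular to these genes. MI stood 0.39 ± 0.49 above Sham on the log2 scale (edgeR adjusted p = 0.69) and MI-E 0.32 ± 0.49 above MI (adjusted p = 0.77).

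Fcnb (chr2:28076378-28084885, minus strand, 9 exons) encodes ficolin B, a lectin that starts the complement cascade on sugars of microbes. It had 203, 193 and 207 CPM in Sham, 297, 217 and 196 in Sham-E, 154, 247 and 117 in MI, and 110.4, 162 and 114 in MI-E. The Sham libraries lay within a narrow band, the MI libraries on both sides of it, and all MI-E libraries below it. Every MI-E library was below every Sham-E library, with a log2 fold change of -0.88 ± 0.25, but the edgeR adjusted p was 0.25. It was the only one of the 9 genes without overlap in that comparison (11.7% of all genes tested lay wholly higher and 12.2% wholly lower). In MI-E against MI the log2 fold change was -0.42 ± 0.25 (adjusted p = 0.40), the only negative value of the set there.

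Prss57 (chr10:79781474-79790961, minus strand) encodes a further serine protease of the granule. Its CPM was 44.4, 43.7 and 55.3 in Sham, 109, 45.7 and 35.4 in Sham-E, 53.7, 44.5 and 24.7 in MI, and 56.3, 58.4 and 50.1 in MI-E. The groups overlapped, and MI 3 was the lowest of the 12. The log2 fold change was -0.22 ± 0.38 in MI against Sham (edgeR adjusted p = 0.78) and 0.42 ± 0.38 in MI-E against MI (adjusted p = 0.60). Prss57 shares 1157 of 2843 exonic bases with Fstl3 on the opposite strand, which had 2.22 to 6.34 CPM.

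Neither transcription factor gene passed in any comparison. Cebpe (chr14:54710360-54712174, minus strand, 2 exons) had 131, 141 and 137 CPM in Sham, 221, 148 and 122 in Sham-E, 207, 154 and 70.1 in MI, and 172, 197 and 147 in MI-E. The MI libraries were the most scattered (143.8 ± 69.2 CPM, SD, n = 3, against 136.2 ± 5.1 in Sham), and MI 3 was the lowest of the 12. The log2 fold change in MI against Sham was 0.08 ± 0.32 (edgeR adjusted p = 0.92), and its sign turned with TPM values (-0.23). Gfi1 (chr5:107716657-107726036, minus strand, 6 exons) had 45.5, 40.0 and 39.5 CPM in Sham, 105, 44.0 and 38.4 in Sham-E, 47.9, 30.98 and 33.8 in MI, and 55.4, 46.8 and 47.5 in MI-E. MI-E was 0.41 ± 0.32 above MI on the log2 scale (adjusted p = 0.53).

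Per transcript length, the set fell into 3 tiers. In Sham, Elane (1314 ± 215 TPM, SD, n = 3), Mpo (1163 ± 179) and Prtn3 (1030 ± 166) came first, and the ranges of neighbours in this order overlapped. Ctsg (338 ± 45.7 TPM), Fcnb (289 ± 12.5), Cebpe (175.2 ± 4.11) and Ms4a3 (175.1 ± 31.7) followed, with no overlap from Ctsg to Fcnb or from Fcnb to Cebpe. Prss57 (32.6 ± 4.86 TPM) and Gfi1 (28.9 ± 4.28) were lowest and overlapped. The order changed after infarction, where Prtn3 led in MI (1042 ± 149 TPM) and in MI-E (1316 ± 200.1) and Fcnb came below Ms4a3 and Cebpe in MI-E. Prtn3 was above Elane in 3 of 3 MI and 3 of 3 MI-E libraries and in 0 of 6 sham-operated libraries. Elane was above Mpo in all 12 libraries.

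The ratios between the genes show the same shift within each library, where total depth and scaling cancel. Prtn3 to Elane, in TPM, was 0.815, 0.761 and 0.776 in Sham, 0.942, 0.780 and 0.827 in Sham-E, 1.09, 1.04 and 1.00 in MI, and 1.17, 1.30 and 1.10 in MI-E. The 6 infarcted libraries lay above the 6 sham-operated ones without overlap, and Sham-E 1 was nearest to them. Prtn3 to Mpo separated the libraries in the same way, with ranges of 0.880 to 0.892 (Sham), 0.824 to 1.14 (Sham-E), 1.18 to 1.27 (MI) and 1.32 to 1.46 (MI-E). These were 2 of the 36 pairs among the 9 genes, and both also separated in CPM. The share of pairs of other genes that part the operations in this way is not given here, so the separation is not shown to be particular to these genes. Elane to Mpo held nearly level, with 1.13 ± 0.044 in Sham, 1.15 ± 0.078 in Sham-E, 1.16 ± 0.025 in MI and 1.16 ± 0.04 in MI-E (SD, n = 3 each). The pairs were picked out after their values were seen, so no test is given. Insert lengths in MI-E (280.4 to 282.6 bp) lay within those of the sham-operated libraries (271.2 to 286.9 bp), those in MI did not, and the part of insert length in the ratios was not tested.

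**Figure D2:**
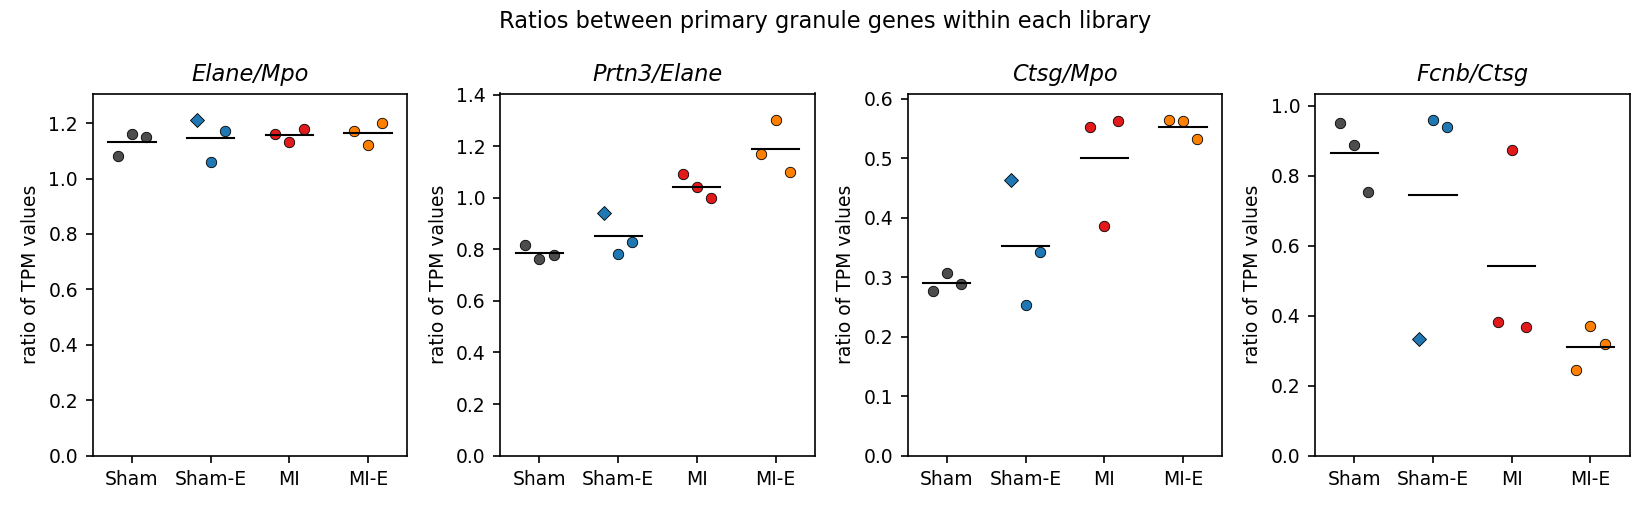
Ratios of TPM values between 2 genes of the set in each library (vertical axes from 0, groups on the horizontal axis, 1 panel per ratio). Points are libraries, the diamond is Sham-E 1 and the line is the group mean. Elane/Mpo stays between 1.06 and 1.21, whereas Prtn3/Elane is at most 0.942 in sham-operated libraries and at least 1.00 in infarcted ones.

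Ctsg to Mpo, in TPM, was 0.291 ± 0.016 in Sham, 0.353 ± 0.11 in Sham-E, 0.501 ± 0.099 in MI and 0.553 ± 0.018 in MI-E. Sham-E 1 (0.463) overlapped with MI 2 (0.387), so this ratio did not part the operations. Ms4a3 to Ctsg had group means from 0.462 ± 0.015 in MI to 0.517 ± 0.043 in Sham. Fcnb to Ctsg ran from 0.864 ± 0.10 in Sham and 0.743 ± 0.36 in Sham-E to 0.541 ± 0.29 in MI and 0.312 ± 0.062 in MI-E, with Sham-E 1 at 0.333.

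Across libraries 2 groups of genes ran closely together. Mpo and Elane had a correlation of log2 CPM of r = 0.98 over 12 libraries and 0.96 over 11 without Sham-E 1. Prtn3, Ctsg and Ms4a3 had r = 0.96 to 0.99 among themselves, and 0.91 to 0.98 without Sham-E 1. Between these 2 groups of genes r was 0.67 to 0.87 with Sham-E 1 and 0.08 to 0.52 without it. Prss57 correlated with both: without Sham-E 1 its r was 0.78 with Mpo, 0.80 with Elane, 0.66 with Prtn3, 0.47 with Ctsg and 0.41 with Ms4a3. Cebpe ran closest with Prss57 (r = 0.91 without Sham-E 1). Gfi1 had r of 0.82 to 0.88 with the 5 genes of both groups over 12 libraries, and of 0.45 to 0.52 without Sham-E 1. Fcnb had r of -0.01 to 0.57 with the other 8 genes, and of -0.70 to 0.28 without Sham-E 1. These correlations are descriptions over libraries that share groups and scaling, and carry no p.

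MI against Sham asks what infarction alone does to the set. Of the 9 genes 4 were higher (52.4% of all genes tested were) and 5 lower in the fit, with a median log2 fold change of -0.15 beside 0.02 over all genes tested. None of the 9 passed, against 0.417% of all genes, and none had an unadjusted p under 0.05, against 19.5% of all genes. DESeq2 and limma also called 0 of the 9. Without Sham-E 1 the median was again -0.15 and 0 of 9 passed, against 7.9% of all genes. The standard errors were smaller without it, since all groups share 1 estimate of the spread. Ctsg then stood at 0.48 ± 0.17 (edgeR adjusted p = 0.10) and Ms4a3 at 0.39 ± 0.16 (adjusted p = 0.17).

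MI-E against MI asks what EMPA adds after infarction. In the fit 8 of the 9 genes were higher and Fcnb was lower, with a median of 0.30 beside -0.02 over all genes, of which 47.6% were higher. None of the 9 passed (0.00661% of all genes did), 0 had an unadjusted p under 0.05 (17.4% of all genes), and DESeq2 and limma called 0. No gene of the set was without overlap between the groups, against 11.6% of all genes higher and 10.1% lower. Without Sham-E 1 the median stayed at 0.30, and again 0 of 9 passed, against 0.271% of all genes. Gfi1 (0.41 ± 0.16, edgeR adjusted p = 0.18) and Ctsg (0.37 ± 0.17, adjusted p = 0.22) then had the lowest adjusted p-values.

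Sham-E against Sham asks what EMPA does without infarction, and here 1 library set the direction. All 9 genes were higher in the fit (52.5% of all genes were), with a median of 0.56 beside 0.01 over all genes, and Ctsg (0.93 ± 0.47) and Ms4a3 (0.90 ± 0.49) had the largest log2 fold changes. None of the 9 passed in edgeR (0% of all genes did), 0 had an unadjusted p under 0.05 (1.9% of all genes), and DESeq2 and limma called 0. No gene of the set was without overlap, against 4.52% of all genes higher and 4.46% lower. Without Sham-E 1, 8 of the 9 were lower and the median was -0.10, with Prss57 at -0.24 ± 0.26 and Fcnb at 0.04 ± 0.26. Again 0 of 9 passed, and 0% of all genes did.

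MI-E against Sham-E asks what infarction does under EMPA. With all libraries 1 of the 9 was higher (50.4% of all genes were) and 8 lower, the median was -0.20 beside 0.00 over all genes, and 0 of 9 passed in edgeR (0% of all genes), DESeq2 or limma. Fcnb alone had an unadjusted p under 0.05 in edgeR's quasi-likelihood test, against 13.4% of all genes. Without Sham-E 1 the median was 0.35, and 2 of the 9 passed, both higher, against 0.755% of all genes (0.277% passing as higher). These were Ctsg, higher by 0.96 ± 0.20 (edgeR adjusted p = 0.048), and Ms4a3, higher by 0.91 ± 0.19 (adjusted p = 0.049). Sham-E then has 2 libraries, with 189.5 and 176 CPM of Ctsg against 307 to 390.3 in MI-E. The library left out was the highest in both genes, so leaving it out lowers Sham-E, and these passes are no independent test. Prtn3 was at 0.63 ± 0.20 (adjusted p = 0.15), Elane at 0.10 ± 0.19 (adjusted p = 0.82), Mpo at 0.03 ± 0.22 (adjusted p = 0.95) and Fcnb at -0.68 ± 0.26 (adjusted p = 0.22).

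**Figure D3:**
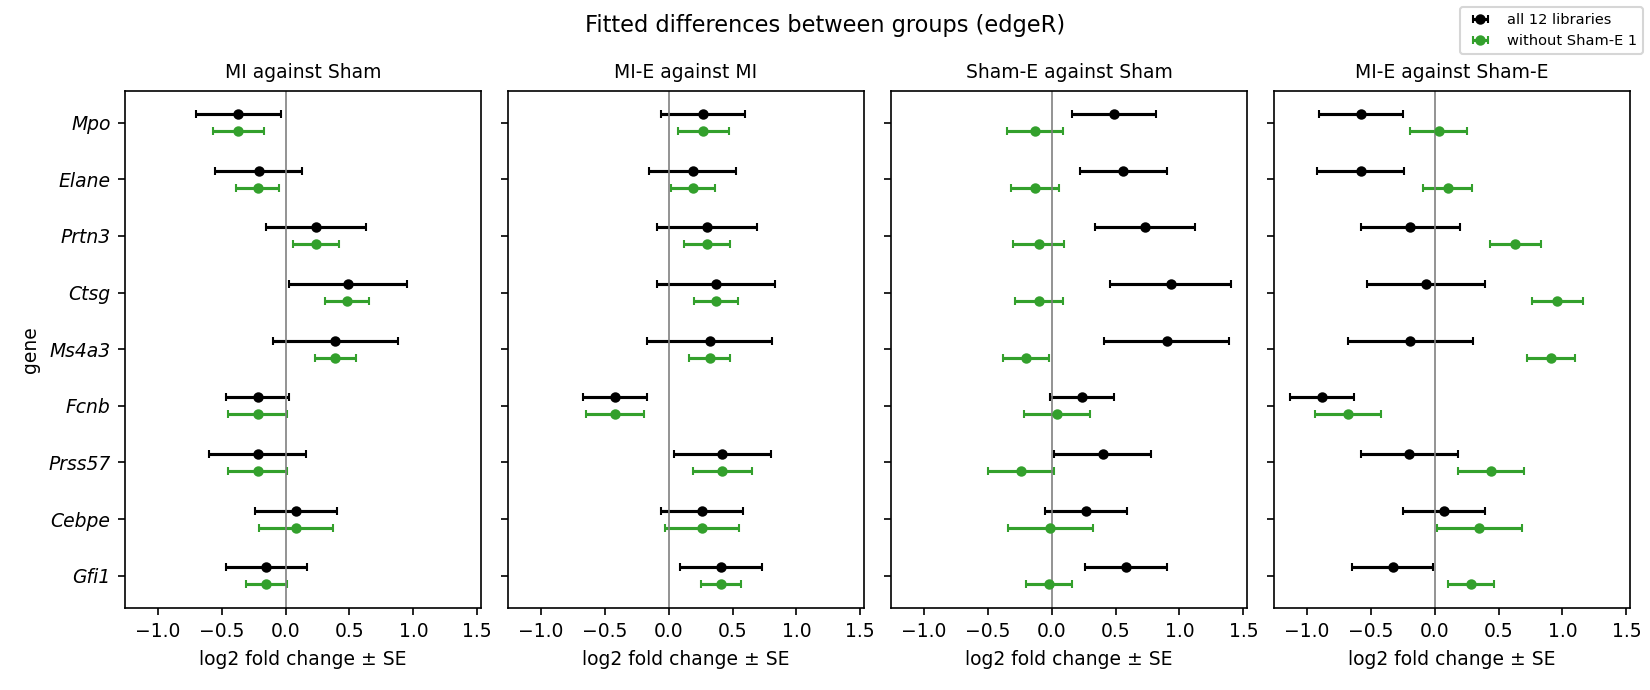
Log2 fold change ± SE of each gene in 4 comparisons (horizontal axes in log2 units, 1 row per gene), fitted by edgeR with all 12 libraries (black) and without Sham-E 1 (green). In the 2 panels with Sham-E the 2 fits differ, as for Ctsg in MI-E against Sham-E (-0.07 and 0.96), and in the other 2 panels the estimates are alike and the bars shorter.

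The interaction subtracts the EMPA difference in sham-operated mice from that in infarcted mice. It was positive for 1 of the 9 genes (47% of all genes), with a median of -0.37 with all libraries (-0.04 over all genes tested) and 0.40 without Sham-E 1. None of the 9 passed in either fit (0.00661% and 0.00645% of all genes). With all libraries 0 of the 9 had an unadjusted p under 0.05, against 13.5% of all genes, and DESeq2 and limma called 0. The comparisons share groups: Sham-E 1 enters Sham-E against Sham and MI-E against Sham-E with opposite signs.

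Sham-E 1 differed from the other libraries in more than the set. Against the median of the other 11 libraries it was 3.23-fold higher in Ms4a3, 3.22-fold in Ctsg, 2.84-fold in Elane, 2.75-fold in Mpo and 2.57-fold in Prtn3. Gfi1 (2.39-fold) and Prss57 (2.38-fold) were next, and Fcnb (1.54-fold) and Cebpe (1.5-fold) lay closest to the rest. Of 19 further genes of the primary granule, 12 were also highest in this library, in TPM. The mean log2 CPM of 12 monocyte genes was above the other 11 libraries (7.83 against 7.13 to 7.72), and that of 16 secondary granule genes was within them (10.31 against 9.30 to 10.33). The 12 erythroid genes were all lowest in this library (mean log2 CPM 7.37 against 8.93 to 10.36), as were 10 of 12 early B-lineage genes (2.51 against 4.59 to 6.36) and 7 of 11 eosinophil, basophil and mast cell genes (5.10 against 5.84 to 6.00). Of 15 cell cycle genes 3 were lowest in this library, and their mean log2 CPM was 7.69 against 7.71 to 8.37 in the rest. No gene of these lists was at 0 in all libraries. The part of these shifts in the level of the 9 genes was not tested.

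Other genes of the primary granule were mostly higher in MI than in Sham. This list of 19 genes holds the enzyme that activates the proteases, their inhibitor, the granule matrix, lysosomal hydrolases and chaperones of myeloperoxidase folding, and 18 were tested (all but Bpi). In MI against Sham 15 of 18 were higher, with a median of 0.38 beside 0.02 over all genes, 0 passed (0.417% of all genes) and 8 lay wholly higher (13.4% of all genes). Without Sham-E 1, 4 passed, all higher, as 4.12% of all genes did. Among them were Srgn, the proteoglycan that holds the proteases in the granule, at 0.72 ± 0.17 (edgeR adjusted p = 0.022), the lysosomal hydrolase Gusb at 0.46 ± 0.11 (adjusted p = 0.03), and Serpinb1a, an inhibitor of these proteases, at 0.70 ± 0.20 (adjusted p = 0.05 after rounding). Srgn stood at 311, 305 and 318 CPM in Sham, 661, 329 and 327 in Sham-E, 429.7, 519 and 594 in MI, and 344, 462 and 317 in MI-E, so that every MI library was above every Sham library. In MI-E against MI 12 of the 18 were lower, the median was -0.11 and 0 passed. Srgn was 0.46 ± 0.26 lower there (log2 fold change -0.46, adjusted p = 0.37), a direction shared with Fcnb alone among the 9 genes.

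Ctsc encodes cathepsin C, which cuts the propeptide from elastase, proteinase 3 and cathepsin G. Its log2 fold change was 0.87 ± 0.54 in MI against Sham (edgeR adjusted p = 0.39) and -0.53 ± 0.54 in MI-E against MI (adjusted p = 0.65). The MI libraries were far apart for it, at 206, 467 and 113 CPM, against 166, 143 and 120.0 in Sham. Serpinb1a had 617, 514 and 325 CPM in MI and 510.1, 555 and 481 in MI-E, against 327, 284 and 284 in Sham. In Sham-E against Sham all 18 were higher, with a median of 0.18 and 0 passing. Without Sham-E 1 that median was 0.00. In MI-E against Sham-E 14 of 18 were lower, the median was -0.11 (0.20 without Sham-E 1), and 0 passed.

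Around Gfi1 and Cebpe, a list of 21 partners and targets included factors of the myeloid lineage and genes that Gfi1 represses. In MI against Sham 8 were higher and 13 lower, with a median of -0.24, and 0 passed. Id2, an inhibitor of basic helix-loop-helix factors, had 66.6, 67.3 and 60.1 CPM in Sham and 198, 118 and 368 in MI, which is 1.82 ± 0.37 on the log2 scale (edgeR adjusted p = 0.055). Myb, the factor of dividing progenitors whose core motif is marked in the sequences, had 266, 285 and 330.2 CPM in Sham, 204, 294 and 273 in Sham-E, 147, 231 and 160.4 in MI, and 169.9, 149 and 169 in MI-E. All 6 infarcted libraries were below all 3 Sham libraries, and MI 2 was above Sham-E 1. How many of all genes tested part these libraries in the same way is not given here. The log2 fold change of Myb was -0.71 ± 0.19 in MI against Sham (adjusted p = 0.087) and -0.66 ± 0.19 in MI-E against Sham-E (adjusted p = 0.25). Without Sham-E 1, 1 of the 21 rose (Id2, edgeR adjusted p = 0.012) and 2 fell (Myb, adjusted p = 0.026, and Nab2, -0.82 ± 0.22, adjusted p = 0.041) in MI against Sham, where 4.12% of all genes rose and 3.78% fell. Cebpa, which drives the entry into the granulocyte line, was at 0.19 ± 0.21 (adjusted p = 0.65), and Irf8, which favours monocytes, at -0.09 ± 0.18 (adjusted p = 0.82).

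Secondary granule genes, which follow the primary granule genes in the same lineage, gave a reference for stage. In MI against Sham all 16 were higher, with a median of 0.59, 0 passed in edgeR with all libraries, 10 had an unadjusted p under 0.05 (19.5% of all genes) and 11 lay wholly higher (13.4% of all genes). Lcn2 (1.23 ± 0.31, adjusted p = 0.078) and Anxa1 (1.14 ± 0.29, adjusted p = 0.075) had the lowest p-values. Without Sham-E 1, 6 of the 16 passed, all higher, where 4.12% of all genes passed as higher and 0 of the 9 primary granule genes did. In MI-E against MI 14 of 16 were lower, with a median of -0.35 and 0 passing, where 8 of the 9 primary granule genes were higher. Whether the lists differ was not tested.

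Per library, the mean log2 CPM of the 9 genes less that of the 16 secondary granule genes was -1.83, -1.83 and -1.41 in Sham, -1.26, -1.87 and -1.83 in Sham-E, -2.32, -2.58 and -2.28 in MI, and -1.65, -1.97 and -1.80 in MI-E. The MI libraries were thus the lowest 3 of the 12, and MI-E overlapped with both sham-operated groups. Cell cycle genes are active in the dividing promyelocyte and in other precursors. They were lower in MI than in Sham for 14 of 15 (median -0.40), where 52.4% of all genes were higher. In MI-E against MI 14 of 15 were higher (median 0.36), against 47.6% of all genes. With all libraries 0 passed in either comparison (0.417% and 0.00661% of all genes). Without Sham-E 1, Mcm5 passed as lower in MI against Sham (-0.51 ± 0.13, edgeR adjusted p = 0.038), where 3.78% of all genes did. Among other cell types, the summed TPM of 12 early B-lineage genes ranged over 1040 to 1435 (Sham), 291 to 1181 (Sham-E), 469 to 563 (MI) and 557 to 631 (MI-E). That of 12 monocyte genes ranged over 2731 to 3281, 2646 to 4318, 2779 to 4348 and 3109 to 3747 in the same order. The part of these lists in the levels of the 9 genes was not tested.

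**Figure D4:**
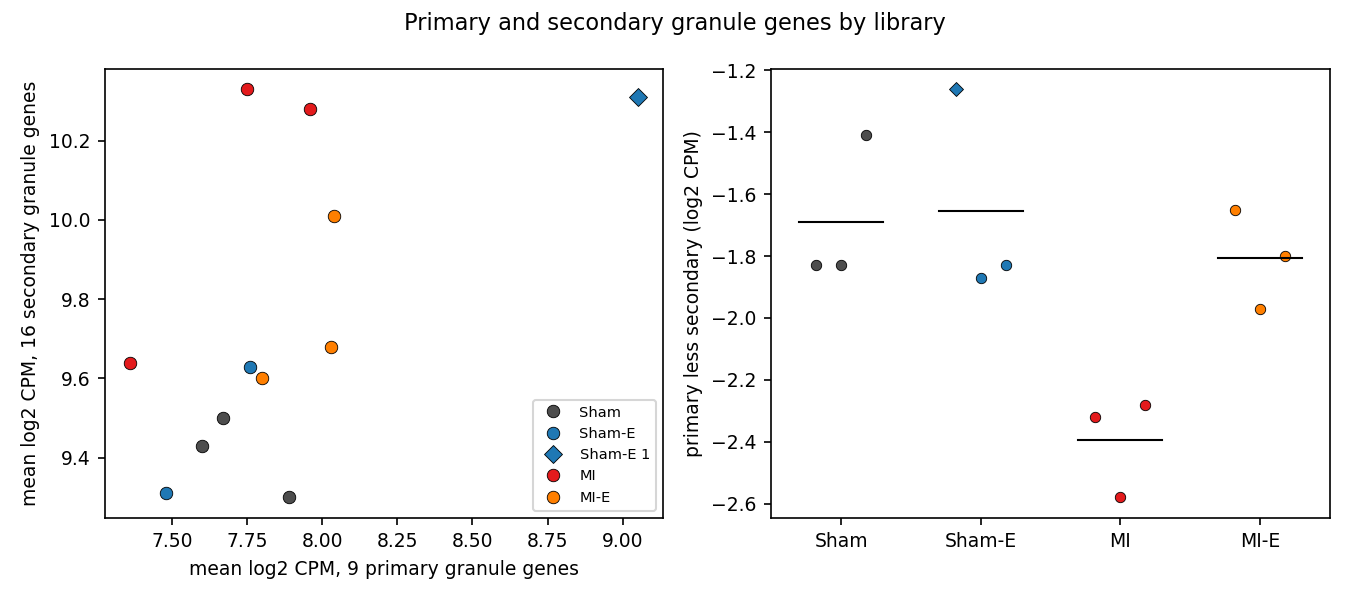
Left, mean log2 CPM of the 9 primary granule genes (horizontal) against that of 16 secondary granule genes (vertical) in each library; right, the first less the second by group, with the group mean as a line. Sham-E 1 (diamond) is far to the right at 9.05, and the 3 MI libraries have the lowest differences, from -2.58 to -2.28.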

How the data were processed

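The authors deposited a table of RSEM expected counts per gene, held as whole numbers, and a matching table of TPM, which RSEM corrects for transcript length. Per the submitters' processing notes in the labels, the build was mm10 and the tools were RSEM, STAR 2.4.0j and CASAVA 1.8. Their roles, the annotation, strand and filters were not given in the sources used here. Columns were matched by the group and number in their names. Groups with numbers unlike the sample titles (Sham and MI-E) were matched to the group alone.

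Expected counts were tested in edgeR 4.0.16 under R 4.3.3 (quasi-likelihood F-test, filterByExpr, TMM, robust dispersions, a mean per group, 8 residual degrees of freedom) on all 12 libraries. The p-values were adjusted by Benjamini-Hochberg over 15119 genes, and each SE was derived from the log2 fold change and its F. DESeq2 1.42.0, limma 3.58.1 on log2(TPM + 1), other scaling and filters, and each library left out in turn were alternatives. The scripts were tested on simulated data. Log2 CPM used a prior count of 2.

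The 9 genes, the gene lists and the comparisons were chosen with earlier results of these data known. All 9 genes are named, and from the other lists mainly those with the smallest p, with Ctsc, Serpinb1a, Srgn, Cebpa and Irf8 always. Genes of these lists that pass are not all named. For monocyte, early B-lineage, erythroid, and eosinophil, basophil and mast cell genes only counts or levels are given. Lists of mature neutrophil, stem and progenitor, and T and natural killer cell genes were also drawn up and are not described here. One gene of these lists is not reported here by name. The fits without Sham-E 1 for these lists, the ratios between genes and the motifs were added after the data were seen. Positions are from GENCODE M21 on mm10. Deviations from the group mean had correlations of -0.206 to 0.15 between same-numbered libraries of different groups (4 of 13 pairs over 0.1). Between libraries with different numbers they ran from -0.217 to 0.263. The labels state no shared origin, so libraries were not paired, and a pairing is not excluded.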

Additional observations from a re-analysis of the deposited data

How the results depend on the processing

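None of the 9 genes passed in the 44 combinations of an alternative setting and a comparison that kept all libraries. The median of the 9 kept its sign in each of them except MI-E against Sham-E with the replicate block (0.11, main -0.20). Leaving out 1 library, 0 passed except in MI-E against Sham-E, where 2 passed without Sham-E 1 (range 0 to 2). Medians then ranged from -0.28 to 0.04 in MI against Sham, 0.16 to 0.44 in MI-E against MI, -0.10 to 0.84 in Sham-E against Sham, -0.55 to 0.35 in MI-E against Sham-E and -0.67 to 0.40 in the interaction. Genes called over all tested moved more: in MI against Sham 63 became 156 without a filter, 1066 with DESeq2, 276 and 259 on TPM plus 1 or 0.1, 344 fitting 2 groups, 1 with the replicate block and 1 to 1224 leaving out a library. In MI-E against MI 1 became 33 without a filter, 577 with DESeq2, 85, 73 and 9 on TPM (plus 1, plus 0.1, unfiltered), 3 fitting 2 groups and 1 to 988 by library. In Sham-E against Sham 0 became 2 with DESeq2 and 2 on unfiltered TPM, and stayed 0 to 0 by library. In MI-E against Sham-E 0 became 212 with DESeq2, 1 on unfiltered TPM and 0 to 117 by library. In the interaction 1 became 167 with DESeq2, 18, 12 and 7 on TPM, 0 with the replicate block and 1 to 150 by library, and no fit to 2 groups exists. The cause was not tested. Of 396 single-gene values with all libraries 25 changed sign, none of them past the threshold. On TPM these were Cebpe in MI against Sham (-0.23, -0.24 and -0.23), Ctsg (0.08) and Cebpe (-0.09) in MI-E against Sham-E, and Cebpe (0.14) and Gfi1 (0.13, 0.15 and 0.13) in the interaction, where Cebpe also turned with upper-quartile scaling (0.02). With the replicate block, whose pairs had correlations of -0.206 to 0.15 (same number only, no shared origin stated), Cebpe turned in MI against Sham (-0.11), Prtn3 (0.14), Ctsg (0.40), Ms4a3 (0.31), Prss57 (0.11) and Gfi1 (0.02) in MI-E against Sham-E, and Mpo (0.03), Cebpe (0.43) and Gfi1 (0.19) in the interaction. Leaving out a library turned 40 of 540 single-gene values. In MI against Sham Prss57 ran from -0.47 to 0.04 and Cebpe from -0.28 to 0.41, and in MI-E against MI Cebpe from -0.07 to 0.62. In Sham-E against Sham the lowest values, all without Sham-E 1, and the highest were Mpo -0.13 to 0.79, Elane -0.13 to 0.86, Prtn3 -0.10 to 1.05, Ctsg -0.10 to 1.26, Ms4a3 -0.20 to 1.26, Prss57 -0.24 to 0.69, Cebpe -0.01 to 0.44 and Gfi1 -0.02 to 0.84. In MI-E against Sham-E the ranges were Mpo -0.89 to 0.03, Elane -0.88 to 0.10, Prtn3 -0.51 to 0.63, Ctsg -0.41 to 0.96, Ms4a3 -0.55 to 0.91, Prss57 -0.49 to 0.44, Cebpe -0.10 to 0.35 and Gfi1 -0.58 to 0.28. In the interaction they were Mpo -0.52 to 0.40, Elane -0.67 to 0.32, Prtn3 -0.75 to 0.40, Ctsg -0.89 to 0.47, Ms4a3 -0.94 to 0.52, Prss57 -0.27 to 0.66, Cebpe -0.33 to 0.35 and Gfi1 -0.43 to 0.43. The least abundant of the 9 genes, Prss57 and Gfi1, still had at least 24.7 CPM in every library.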

Other observations

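The genes whose log2 CPM over the 12 libraries was most like the mean of the 9 genes, among 9193 genes outside the lists, were Tuba8 (r = 0.967), Emilin1 (0.962), Mfsd13a (0.960), Rpn1 (0.953), Dctn1 (0.949), Gstm1 (0.947), Rrbp1 (0.945), Plin3 (0.941), Tmem97 (0.938) and Dnajb11 (0.934). Rpn1 belongs to the enzyme that adds sugar chains to new proteins in the endoplasmic reticulum, Rrbp1 is a ribosome-binding protein of the same membrane, and Dnajb11 is a chaperone inside it. Each of the 10 was also highest in Sham-E 1, as for Tuba8 with 52.3 CPM against 19.0 to 29.2 in the other 11 libraries. The lowest correlations were those of Dyrk3 (-0.942), Senp2 (-0.936) and Tspan8 (-0.930), which were all lowest in Sham-E 1. The mean log2 CPM of the 9 genes was itself 9.05 in Sham-E 1 against 7.36 to 8.04 in the other 11 libraries. The ranking thus favours genes that are highest or lowest in that library, and their place there is no separate result. Without Sham-E 1 the most alike were Nudt14 (r = 0.944 over 11 libraries), Phgdh (0.937), Selenoh (0.928), Trappc9 (0.926), Rpl7l1 (0.924), Srf (0.906), Ddost (0.904), Tmem97 (0.890), Qdpr (0.889) and Zyx (0.887), and Tmem97 alone was in both lists. Ddost is a further subunit of the sugar-adding enzyme of Rpn1. Whether genes of the endoplasmic reticulum are more frequent among these genes than elsewhere was not tested.

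Within 50 kb of Elane, Prtn3 and Prss57, 14 other genes were tested, and 0 passed in any of the 5 comparisons with edgeR. Cfd, which encodes complement factor D and lies just past Elane, was near its detection limit at 0.0427 to 0.810 CPM, against 561 to 1935 CPM for Elane.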
